A study of Rattus norvegicus with 18 samples.

Results

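The time course of gene expression under indomethacin was followed in the ovary, in follicles of Crl:CD(SD) rats, an outbred Sprague-Dawley stock, across the 12 hours between the evening of proestrus and the morning of estrus. It comprised the 6 samples labelled as indomethacin-treated among the 18 of the series, read over the 31042 probe sets that remained after the control probe sets were left out of the 31099 on the array. Indomethacin (IM), which inhibits the cyclooxygenases that make prostaglandins, was given once by mouth at 4 mg/kg at 16:00 of proestrus. IM UF were unruptured follicles taken at 10:00 of estrus, 18 hours after the dose, and IM PeF were follicles taken at 22:00 of proestrus, 6 hours after the dose, with 3 samples each. The hour of the day and the time since the dose both differ between IM UF and IM PeF, so their parts in a difference cannot be told apart. For comparison, rats given 100 mg/kg RU486 (RU), which blocks the receptors of progesterone and of glucocorticoids, by mouth at 10:00 of proestrus gave unruptured RU UF and earlier RU PeF follicles at those same hours, and untreated rats gave post-ovulatory control PoF and earlier control PeF follicles, again with 3 samples each. Follicles were cut by laser from frozen sections 8 micrometres thick, 15 in each phase, and each sample was hybridised to 1 array. The labels state 3 animals for each treatment and time but tie no sample to an animal, so p-values measure the spread between samples, which may be partly technical. They also name the follicles of 22:00 both peri-ovulatory and pre-ovulatory, and they give no age for the rats.

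In the rat, the surge of luteinizing hormone (LH) on the afternoon of proestrus acts on the granulosa and theca cells of large follicles, largely through cyclic AMP. Granulosa cells then switch on ligands of the epidermal growth factor receptor, cyclooxygenase 2 and the progesterone receptor, give up estrogen synthesis and turn into luteal cells that secrete progesterone, a change called luteinization. Prostaglandins are needed for the follicle wall to break, and follicles of indomethacin-treated rats can take on luteal features with the oocyte still inside.

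The label of a luteinization time course was set against 11 tested genes of luteinization, and these showed no common direction. Of them 2 rose and 4 fell between IM UF and IM PeF, with a median log2 difference of 0.05 (-0.19 without the array IM PeF 2). Calls thus covered 54.5% of the list, against 37.8% of all tested genes. The cell cycle inhibitor Cdkn1b rose (log2 difference 1.14, SE 0.29), though a further probe set of it lay at 0.20, and Hsd3b1, which makes progesterone from pregnenolone, rose slightly (0.31, SE 0.09), a call lost without IM PeF 1, IM PeF 3 or IM UF 2 (0.26 to 0.29). Star, which brings cholesterol into mitochondria, fell (-0.73, SE 0.14), as did the prolactin receptor Prlr (-0.65, SE 0.15), the androgen-responsive gene Parm1 (-2.69, SE 0.34) and the protease inhibitor Timp1 (-0.60, SE 0.18). The call of Timp1 was lost without IM PeF 1, IM PeF 3, IM UF 2 or IM UF 3 (-0.57 to -0.48). In untreated rats, whose follicles ovulated, 3 of the 11 genes rose and 4 fell (median 0.21), so this list cannot tell whether follicles luteinized. The comparison is described below simply as the time course under indomethacin.

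The indomethacin arrays differed in brightness. The median deposited signal was 23.8, 7.68 and 19.6 in IM UF 1 to 3, and 19.6, 11.1 and 19.4 in IM PeF 1 to 3, and signals are given below after quantile normalisation over the 18 arrays. Replicates correlated at 0.950 to 0.974 across probe sets within IM UF and at 0.929 to 0.970 within IM PeF. The first principal component of the 6 arrays, with 63.9% of the variance, placed IM UF at 58.0 to 67.0, and IM PeF at -79.8, -38.3 and -69.1. IM PeF 2 thus lay nearest to IM UF, and of the probe sets called below it was the IM PeF array closest to the IM UF mean in 62.7%. For Gapdh, the excess of the 3' over the 5' control probe set, a measure that grows as RNA degrades, was on the log2 scale 2.89 ± 0.866 in IM UF and 2.99 ± 0.559 in IM PeF (SD, n = 3). For Actb it was 5.16 ± 0.174 in IM UF and 4.79 ± 0.307 in IM PeF.

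IM UF differed from IM PeF over a large part of the genome. With limma and Benjamini-Hochberg adjustment at 0.05, 6052 of 18155 tested probe sets were called (33.3%), 2957 higher and 3095 lower in IM UF. Counted by gene, with the brightest probe set of each, 3926 of 10391 genes were called (37.8%), of which 2012 rose (19.4% of those tested) and 1914 fell (18.4%), and the median over all tested genes was 0.00 on the log2 scale. The difference was 2-fold or more for 3274 called probe sets and 16-fold or more for 46, of which 14 were higher and 32 lower. Leaving out IM PeF 2 gave 6444 calls, and 5469 of the 6052 were among them. With the deposited signals, not scaled between arrays, 609 probe sets were called.

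The largest rise was that of Cemip, which breaks down hyaluronan. Its signal was 2157, 2017 and 2240 in IM UF, against 32.6, 27.7 and 36.2 in IM PeF, a 61.5-fold difference (log2 5.94, SE 0.32, limma adjusted p = 1.39e-09). The values of each group lay close together and far from those of the other. Scx, a transcription factor of tendon and other matrix-rich tissue, had 299, 221 and 322 in IM UF, against 1.06, 2.92 and 1.75 in IM PeF, where it was not above background, a rise of at least 29.1-fold (adjusted p = 1.14e-08). Background here is the brightest of 27 unspiked control probe sets on each array. Wnt4, a signalling ligand needed for ovarian development, had 159, 154 and 188 in IM UF, against 1.00, 3.23 and 1.38 in IM PeF, also at background, a rise of at least 17.6-fold (adjusted p = 3.33e-07). The helix-loop-helix inhibitor Id2 rose 20.3-fold (log2 4.35, SE 0.45) on 1 probe set and by 3.01 on the brighter one.

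The other genes among the 12 largest rises were Proser2 (28.6-fold), Cmbl (23.6-fold), Klhdc8a (22.6-fold), Fmo1 (17.1-fold), Sbk1 and Sytl2 (17.0-fold each), Hao2 (16.3-fold) and Tmem14a (16.1-fold). Fmo1 is a flavin monooxygenase of drug metabolism, Hao2 a peroxisomal oxidase and Sytl2 a protein of vesicle transport. These genes, and the largest falls below, were picked among probe sets whose groups do not overlap, as 46.0% of those tested did not. In IM PeF, Fmo1 was above background on 1 of 3 arrays and Sytl2 on 2.

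The steepest fall was that of Adcyap1, the gene of the neuropeptide PACAP, which is made in granulosa cells after the LH surge. Its signal was 10.8, 8.02 and 9.81 in IM UF, against 6948, 1864 and 4905 in IM PeF (log2 difference -8.35, SE 0.43, limma adjusted p = 1.02e-09), and a second probe set gave -7.65. Ptgs2, the cyclooxygenase that the LH surge induces, had 12.4, 2.88 and 15.5 in IM UF, against 4395, 278 and 3612 in IM PeF (-7.14, SE 0.83, adjusted p = 4.24e-06). The transcript of this cyclooxygenase, a target of the drug, was thus high 6 hours after the dose and low at 18 hours. Gclm, the regulatory subunit of the enzyme that limits glutathione synthesis, had 66.3, 68.0 and 69.9 in IM UF, against 5359, 2255 and 4469 in IM PeF (-5.74, SE 0.39, adjusted p = 1.08e-08). In each of these 3 genes the lowest IM PeF value was that of IM PeF 2. In IM UF, Ptgs2 and this probe set of Adcyap1 were above background on 2 of 3 arrays.

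Sult1e1, which inactivates estrogens by sulphation, had 34.3, 116 and 55.3 in IM UF, against 2740, 1897 and 2170 in IM PeF (log2 difference -5.14, SE 0.49). Secretogranin 2 (Scg2), a protein of secretory granules, fell by 4.81 on the log2 scale, and the chloride channel Cftr by about as much. Pdzph1, Lratd1, Sfmbt2, Tchh and Trim36 fell by 4.43 to 4.78 on the log2 scale. In IM UF, Cftr, Pdzph1 and Trim36 were above background on 1 of 3 arrays and Sfmbt2 and Tchh on 2. The retinoid transporter Abca4 was not above background in IM UF and fell at least 9.42-fold.

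**Figure D1:**
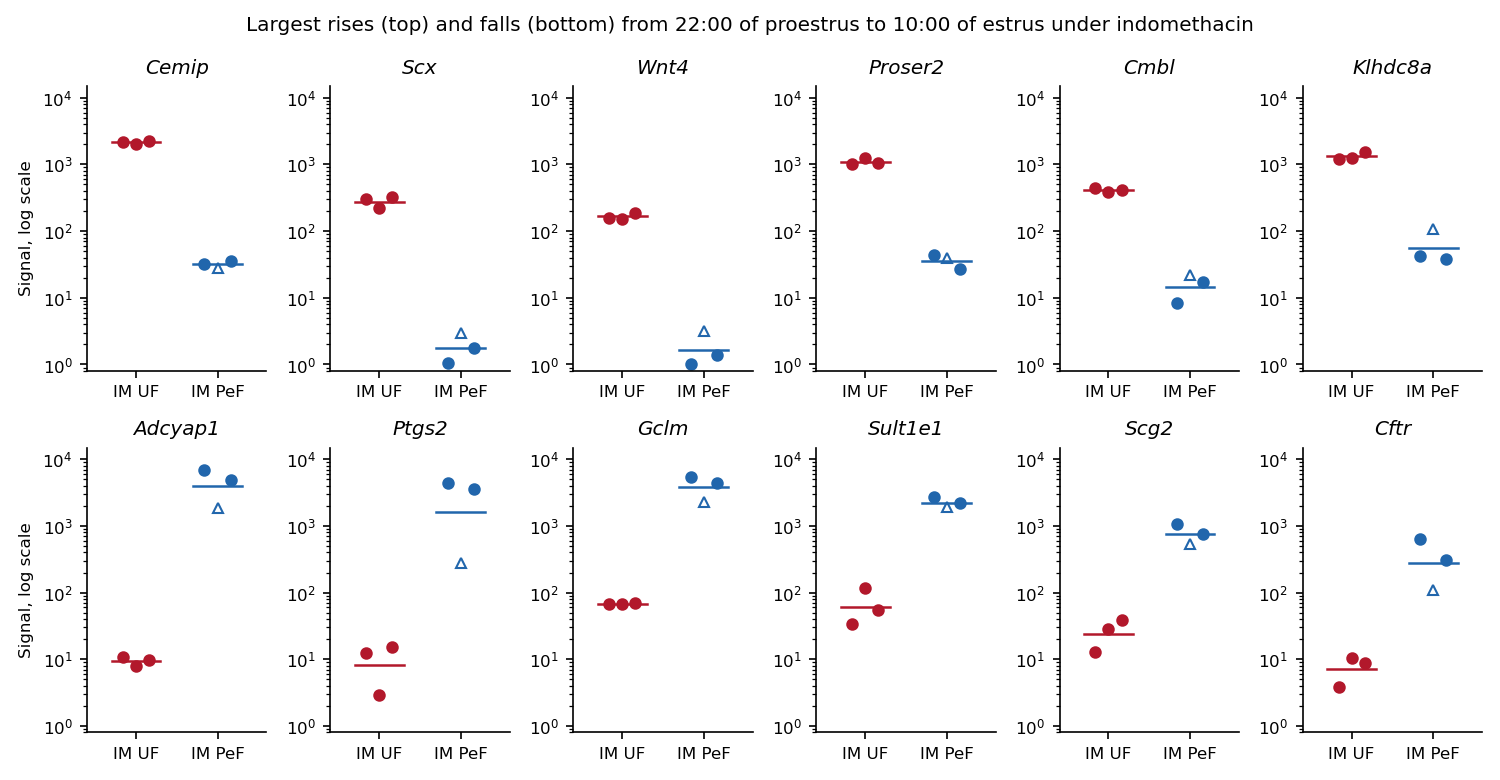
Signals after quantile normalisation (vertical axis, log scale) of the 6 genes with the largest rises (top row) and the 6 with the largest falls (bottom row), in IM UF (red, left) and IM PeF (blue, right). Each point is 1 sample, the open triangle is IM PeF 2 and the bar is the geometric mean of 3 samples. IM PeF 2 had the lowest IM PeF signal of Ptgs2, at 278, against 4395 and 3612.

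Of 19 tested genes of the LH response, 9 fell and 2 rose, with a median log2 difference of -0.70 (10 and 3 without IM PeF 2). With all arrays 57.9% were called, against 37.8% of all tested genes, of which 18.4% fell. Amphiregulin (Areg), a ligand of the epidermal growth factor receptor, had 32.7, 60.5 and 32.6 in IM UF, against 2034, 106 and 583 in IM PeF (-3.56, SE 0.81, limma adjusted p = 0.00258). The related ligand Ereg had 85.8, 119 and 118 in IM UF, against 1754, 87.1 and 604 in IM PeF, and did not pass the test (-2.07, SE 0.91, adjusted p = 0.0909). IM PeF 2 lay within the IM UF range for Ereg, and without it the difference was -3.24 (adjusted p = 0.00592). The progesterone receptor Pgr had 6.70, 1.06 and 6.75 in IM UF, against 196, 20.9 and 106 in IM PeF, a fall of 3.51 (SE 0.74) whose size is uncertain, since Pgr was above background on 1 of 3 IM UF arrays.

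Among the other members, the inhibin alpha subunit Inha fell by 1.62 (SE 0.19), the inflammatory brake Tnfaip3 by 2.11 (SE 0.22) and the G-protein regulator Rgs2 by 2.13 (SE 0.32). The beta B subunit Inhbb went the other way and rose 8.08-fold, with 994, 985 and 1003 in IM UF, against 109, 113 and 142 in IM PeF. The kinase Sgk1 rose 3.56-fold, to 4890, 4152 and 4171 in IM UF, against 1081, 1284 and 1340 in IM PeF. Lhcgr, the LH receptor, had 567, 548 and 557 in IM UF, against 597, 83.1 and 261 in IM PeF, and the groups overlapped (1.23, SE 0.64, adjusted p = 0.156). Without IM PeF 1 it passed the test (1.90, adjusted p = 0.0403).

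The promoters of the LH-response genes with the largest falls and of the hypoxia genes described below were read from RefSeq (build GRCr8), 250 bases before to 50 after each gene's start, 5′ to 3′ on the gene's strand. They were searched on both strands for the cyclic AMP response element TGACGTCA, which occurs in 1.83% of 33469 such promoters, and for ACGTG, the core of the hypoxia response element, which occurs in 19.3%. Those shown hold a match, in capitals, and let the reader see it in its place. Areg is shown for the cyclic AMP element (chr14:17265592-17265891, minus strand), Ptgs2 for a CACGTG in which ACGTG is read once on each strand (chr13:64713813-64714112, plus strand), and Aldoc, the aldolase C gene, for ACGTG on the reverse strand (chr10:63715294-63715593, plus strand).
Areg: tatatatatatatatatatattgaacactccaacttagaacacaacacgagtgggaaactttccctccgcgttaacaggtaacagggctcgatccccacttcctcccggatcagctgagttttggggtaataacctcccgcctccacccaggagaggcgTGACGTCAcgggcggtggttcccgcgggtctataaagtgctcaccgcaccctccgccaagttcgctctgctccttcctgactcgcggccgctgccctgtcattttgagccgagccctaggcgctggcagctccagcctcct
Ptgs2: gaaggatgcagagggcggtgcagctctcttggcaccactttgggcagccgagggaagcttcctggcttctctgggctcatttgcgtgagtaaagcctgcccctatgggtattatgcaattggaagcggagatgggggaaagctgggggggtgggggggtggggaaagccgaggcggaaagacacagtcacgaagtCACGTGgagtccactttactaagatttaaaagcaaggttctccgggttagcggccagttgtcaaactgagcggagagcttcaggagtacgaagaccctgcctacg
Aldoc: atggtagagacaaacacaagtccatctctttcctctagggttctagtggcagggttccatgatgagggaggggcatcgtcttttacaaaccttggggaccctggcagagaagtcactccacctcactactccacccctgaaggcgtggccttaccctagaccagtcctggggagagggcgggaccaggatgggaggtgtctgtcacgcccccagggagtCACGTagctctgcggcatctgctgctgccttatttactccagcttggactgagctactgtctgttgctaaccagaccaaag

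The windows of Adcyap1, Hk1 and Slc16a3 held neither string of letters. Of the LH-response genes with a promoter in the table, 1 of 17 held the cyclic AMP element and 3 held ACGTG, and of the hypoxia and glycolysis genes 16 of 28 held ACGTG and 1 the cyclic AMP element. A match describes the letters of the window and is not evidence of binding.

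Of 15 tested genes of prostaglandin synthesis and signalling, 5 fell and 3 rose (median -0.14), or 53.3% called, against 37.8% of all tested genes. Pla2g4a, the phospholipase that frees arachidonic acid, had 45.0, 50.5 and 35.6 in IM UF, against 601, 170 and 366 in IM PeF (log2 difference -2.87, SE 0.46, limma adjusted p = 0.000123). With Ptgs2 it fell together with the carbonyl reductase Cbr1, which converts prostaglandin E2 to F2 alpha (-1.68, SE 0.31), the prostaglandin transporter Slco2a1 (-0.99, SE 0.26) and the receptor Ptger3 (-2.28, SE 0.57), which was above background on 1 of 3 IM UF arrays. The efflux pump Abcc4, which exports prostaglandins from cells, rose 9.39-fold, with 329, 276 and 382 in IM UF, against 19.7, 52.1 and 32.0 in IM PeF.

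The prostacyclin synthase Ptgis also rose (2.05, SE 0.56), with 1 of 3 IM PeF arrays above background. Ptges, which makes prostaglandin E2, had 119, 61.5 and 87.6 in IM UF, against 32.8, 80.2 and 15.1 in IM PeF, and passed the test although the groups overlapped (1.25, SE 0.44, adjusted p = 0.0379). Its call was lost without IM PeF 1, IM PeF 3, IM UF 1 or IM UF 3 (0.71 to 1.24). The constitutive cyclooxygenase Ptgs1 did not pass it (0.28, SE 0.54).

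Of 15 tested genes of progesterone synthesis and catabolism, 5 rose and 1 fell (median 0.16, and 0.04 without IM PeF 2). That is 6 of 15 called, near the share of 37.8% over all tested genes. Cyp11a1, which makes the first steroid from cholesterol, was among the brighter genes at both times, with 9425, 8624 and 9566 in IM UF, against 8969, 8739 and 8969 in IM PeF (0.05, SE 0.09). Star had 3273, 2285 and 2828 in IM UF, against 5087, 4513 and 4207 in IM PeF. The nuclear receptors Nr5a1 (1.66, SE 0.28) and Nr5a2 (1.31, SE 0.34), which activate steroidogenic genes, rose, Nr5a2 not past the test without IM PeF 1 (0.90), as did the outer mitochondrial membrane protein Tspo (1.07, SE 0.24). Soat1, which stores cholesterol as esters, rose on its brighter probe set (0.64, SE 0.19), while its other probe set lay at -1.45, and the rise was lost without IM PeF 2 (0.46) or IM UF 1 (0.42). Akr1c3, the gene listed earlier as Akr1c18, which inactivates progesterone, had 936, 1271 and 1132 in IM UF, against 1657, 571 and 1368 in IM PeF, with overlapping groups (0.02, SE 0.34).

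Of 7 tested genes of estrogen and androgen synthesis 3 fell and 2 rose (median -2.06), or 71.4% called, against 37.8% of all tested genes. Aromatase (Cyp19a1), which makes estradiol, had 11.8, 6.07 and 9.43 in IM UF, against 474, 93.2 and 314 in IM PeF (log2 difference -4.39, SE 0.49, limma adjusted p = 3.02e-06), with 2 of 3 IM UF arrays above background. Cyp17a1, the theca enzyme that makes androgens, had 1.14, 2.82 and 4.17 in IM UF, where it was not above background, against 158, 65.4 and 78.2 in IM PeF, a fall of at least 8.76-fold (adjusted p = 3.63e-05). Hsd17b7, which acts in both estradiol and cholesterol synthesis, had 569, 751 and 680 in IM UF, against 158, 130 and 179 in IM PeF (2.08, SE 0.27), with a dimmer probe set at 0.18. Hsd17b4, a peroxisomal enzyme that inactivates estradiol, rose by 1.38 (SE 0.25).

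Of 19 tested genes of cholesterol synthesis and its control, 11 rose and none fell (median 0.62), against 19.4% of all tested genes that rose. Dhcr7, the last enzyme of the route, had 3526, 3027 and 2932 in IM UF, against 340, 732 and 582 in IM PeF (log2 difference 2.58, SE 0.27, limma adjusted p = 1.40e-06). The sterol reductase Tm7sf2 rose by 1.90 (SE 0.20), the sterol isomerase Ebp by 1.31 (SE 0.21) and phosphomevalonate kinase (Pmvk) by 1.21 (SE 0.24). Squalene epoxidase (Sqle), Mvk, Mvd, Fdps, Insig1 and the transcription factor Srebf2 rose by 0.47 to 0.95. Without IM PeF 2 there were 9 rises, as Mvd (0.66, adjusted p = 0.0504) and Insig1 (0.58, adjusted p = 0.109) no longer passed. Mvd was also lost without IM PeF 1, IM UF 2 or IM UF 3, Insig1 without IM UF 3 and Srebf2 without IM PeF 3. With the deposited signals 1 of the 19 was called.

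**Figure D2:**
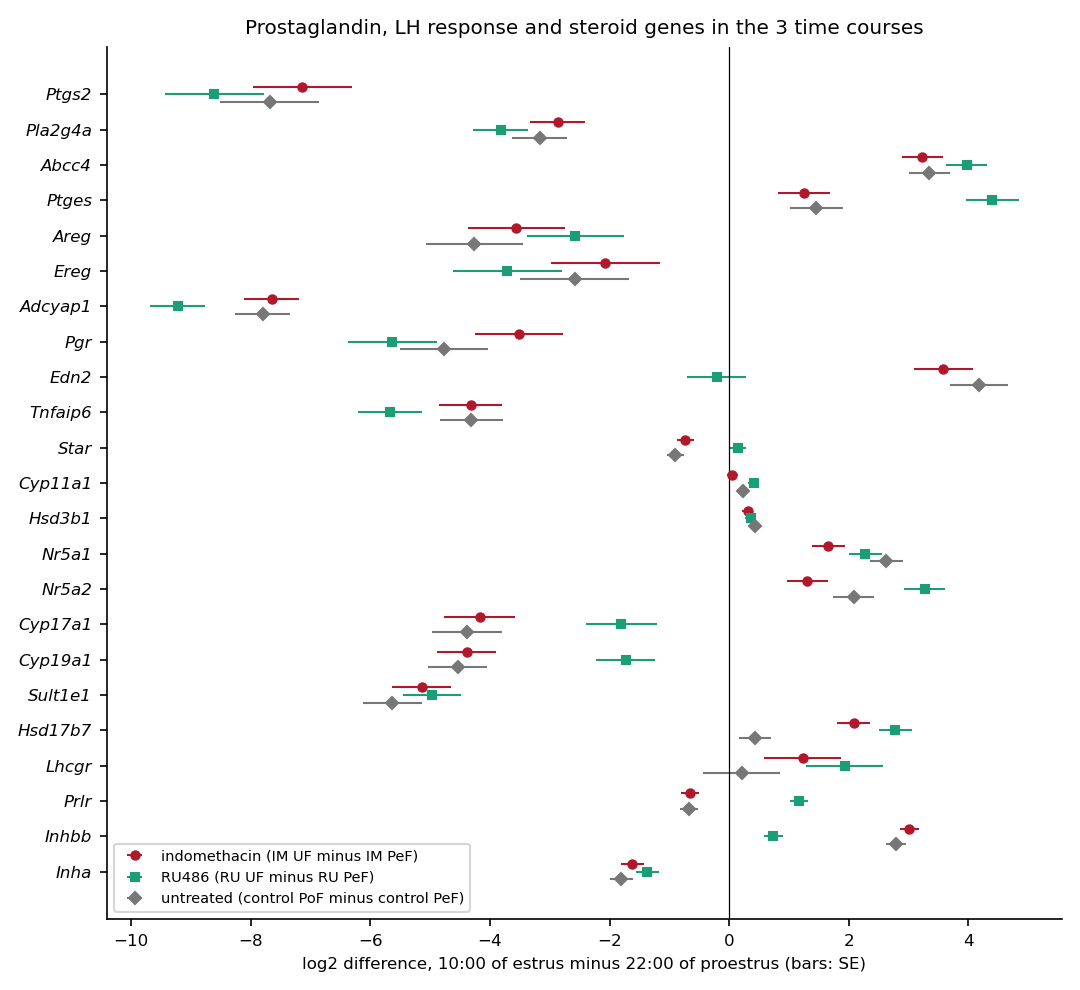
Log2 difference between 10:00 of estrus and 22:00 of proestrus (horizontal axis) of 23 prostaglandin, LH-response and steroid genes under indomethacin (red circles), under RU486 (green squares) and in untreated rats (grey diamonds). Bars are standard errors of the fit, with n = 3 per group. Prlr lay at -0.65 under indomethacin, at 1.17 under RU486 and at -0.67 in untreated rats.

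Of 7 tested matrix genes of the cumulus, the cell layer around the oocyte, 3 fell and 1, Cemip, rose. These were 57.1% of the list, against 37.8% called over all tested genes. Versican (Vcan), a proteoglycan that binds hyaluronan, had 1083, 815 and 1304 in IM UF, against 7470, 6496 and 6675 in IM PeF (log2 difference -2.71, SE 0.16, limma adjusted p = 3.82e-09). Tnfaip6, which stabilises the hyaluronan matrix, had 17.2, 30.1 and 20.7 in IM UF, against 1092, 149 and 738 in IM PeF (-4.32, SE 0.53), and the link protein Hapln1 fell by 3.47 (SE 0.58), with 2 of 3 IM UF arrays above background. The hyaluronan synthase Has2 had 12.2, 24.5 and 8.09 in IM UF, against 16.1, 18.6 and 16.5 in IM PeF, and did not pass the test.

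Of 36 tested collagens and structural matrix genes 18 rose and 3 fell (median 0.60), or 58.3% called, against 37.8% of all tested genes. Perlecan (Hspg2), a basement membrane proteoglycan, had 383, 581 and 525 in IM UF, against 131, 161 and 136 in IM PeF (1.76, SE 0.24). Laminin alpha 1 (Lama1) rose by 1.95 (SE 0.26), the basement membrane collagen gene Col4a1 by 1.04 (SE 0.17) and Lama4 by 0.94 (SE 0.16). The fibrillar collagens Col1a2 and Col3a1 rose by 0.87 and 0.83. The laminin chains Lamb2 (-1.08, SE 0.19), Lama2 and Lama5 made up the 3 falls, and the call of Lama5 (-0.75) was lost without any 1 of the 6 arrays (-0.85 to -0.60). Of 22 matrix proteases and inhibitors 2 rose and 5 fell (median -0.18), or 31.8%, against 37.8% of all tested genes. Cathepsin D (Ctsd) rose by 1.53 (SE 0.26), the inhibitor of plasminogen activators Serpinb2 fell at least 8.26-fold to background in IM UF, and Adamts1, a protease that cleaves versican, had 3115, 3688 and 3196 in IM UF, against 4152, 5656 and 4092 in IM PeF (-0.46, SE 0.27, adjusted p = 0.206).

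Of 12 tested genes, Pgr and targets reported for it in follicles, 2 rose and 5 fell, or 58.3% called, against 37.8% of all tested genes. Endothelin 2 (Edn2), a peptide that contracts smooth muscle, had 447, 549 and 223 in IM UF, against 28.5, 44.3 and 19.4 in IM PeF, with no overlap (log2 difference 3.58, SE 0.49, limma adjusted p = 2.20e-05). The synaptic fusion protein Snap25 had 168, 355 and 192 in IM UF, against 1828, 1884 and 1142 in IM PeF (-2.79, SE 0.33).

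Edn2 also stands among 17 angiogenic factors, of which 5 rose and 2 fell (median 0.35), or 41.2% called, near the 37.8% of all tested genes. Apelin (Apln), a peptide of vessel growth, had 1606, 1102 and 1255 in IM UF, against 89.0, 173 and 125 in IM PeF (3.36, SE 0.53). Vegfa rose by 1.10 (SE 0.19), with 930, 879 and 971 in IM UF, against 545, 348 and 419 in IM PeF. The lymphatic factor Vegfc fell by 2.25 (SE 0.21) and the receptor Kdr by 0.90 (SE 0.18).

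Among hypoxia and glycolysis genes, 15 of 34 tested rose while 5 fell, with a median of 0.49 (17 and 4 without IM PeF 2). With all arrays 58.8% were called, against 37.8% of all tested genes. Aldoc, shown above by its promoter, had 73.8, 68.0 and 95.8 in IM UF, against 4.10, 6.05 and 13.6 in IM PeF (log2 difference 3.02, SE 0.51, limma adjusted p = 0.000201), with 1 of 3 IM PeF arrays above background. The glycolytic enzymes Pfkp (1.26, SE 0.15), Tpi1 (1.51, SE 0.27) and Pgam1 (0.80, SE 0.11) rose, as did Hk1 on its brighter probe set (1.73, SE 0.23), while its other probe set lay at -0.51. Bnip3, which acts in mitophagy, rose by 1.57 (SE 0.34). The glucose transporters Slc2a3 and Slc2a1 fell by 2.40 (SE 0.32) and 0.84 (SE 0.18).

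Of 24 tested genes of glutathione and oxidative stress defence 12 rose and 2 fell (median 0.56), or 58.3% called, against 37.8% of all tested genes. The falls were Gclm and the mitochondrial superoxide dismutase Sod2 (-1.31, SE 0.18). Microsomal glutathione transferase (Mgst1) had 3196, 2821 and 3262 in IM UF, against 469, 1152 and 464 in IM PeF (2.29, SE 0.26). The glutathione peroxidases Gpx1 and Gpx3 rose by 1.84 (SE 0.14) and 2.03 (SE 0.20), catalase (Cat) by 1.88 (SE 0.28) and the cytosolic dismutase Sod1 by 1.31 (SE 0.13).

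**Figure D3:**
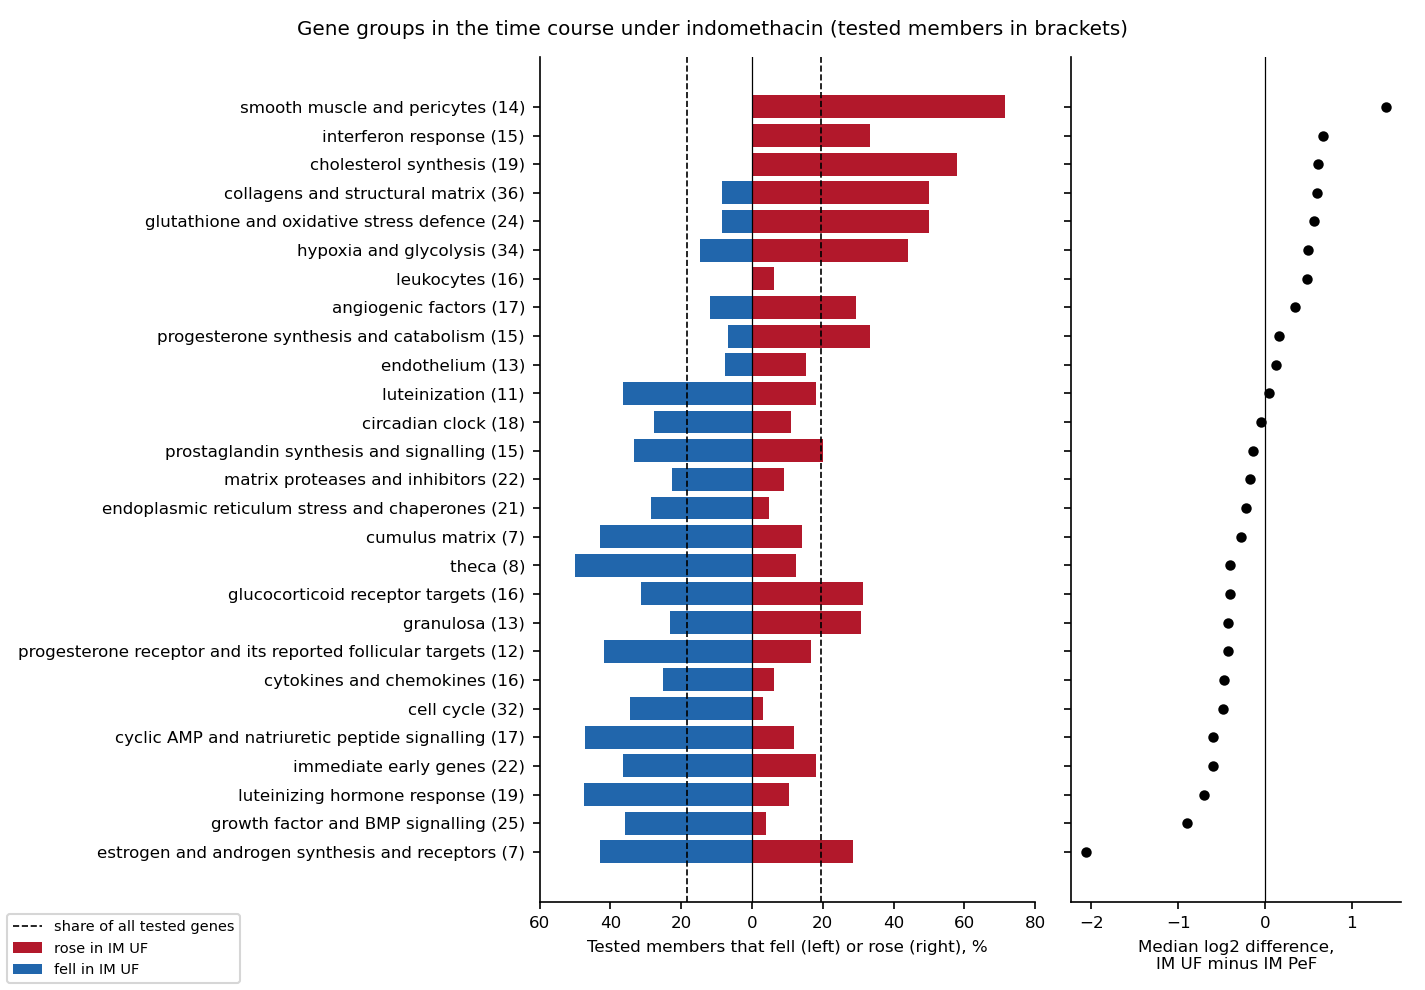
Share of the tested members of each gene or marker group with at least 7 tested members that rose (red, right) or fell (blue, left) in IM UF against IM PeF, in percent (left panel), and the median log2 difference of the group (right panel). Dashed lines are the shares over all tested genes, 19.4% higher and 18.4% lower. Smooth muscle markers had the highest median, 1.40, and estrogen and androgen genes the lowest, -2.06.

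Of 17 tested genes of cyclic AMP and natriuretic peptide signalling 8 fell and 2 rose (median -0.59). This was 58.8% called, against 37.8% of all tested genes. The phosphodiesterases Pde4b and Pde10a, which break down cyclic AMP, fell by 2.34 (SE 0.24) and 2.92 (SE 0.32), and Crem, a transcription factor of the cyclic AMP response, had 198, 222 and 206 in IM UF, against 1588, 585 and 1234 in IM PeF. The catalytic and regulatory kinase subunits Prkaca and Prkar2b rose, by 1.19 and 1.18.

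Of 25 genes of growth factor and BMP signalling 9 fell and 1 rose, Id2 (median -0.90). The share of this list that was called was near the 37.8% of all tested genes, of which 18.4% fell. Kit ligand (Kitlg), a granulosa factor that acts on oocyte and theca, had 53.6, 83.9 and 53.7 in IM UF, against 597, 303 and 779 in IM PeF (log2 difference -3.01, SE 0.26, limma adjusted p = 2.03e-07). The epidermal growth factor receptor Egfr had 1079, 1014 and 742 in IM UF, against 2828, 3181 and 3126 in IM PeF (-1.70, SE 0.19). Bmp7 fell by 1.84 (SE 0.23) and Igfbp2 by 1.61 (SE 0.25).

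Of 32 tested cell cycle genes 11 fell and 1 rose (median -0.48). That is 37.5% called, against 37.8% of all tested genes, of which 18.4% fell. Cyclin B1 (Ccnb1), which drives mitotic entry, had 91.0, 80.4 and 88.5 in IM UF, against 183, 239 and 202 in IM PeF (-1.23, SE 0.15, limma adjusted p = 6.46e-06). The topoisomerase Top2a fell by 1.12 and the anaphase activator Cdc20 by 0.91. The 1 rise was Cdkn1b, while the related inhibitor Cdkn1c fell by 1.30, a call lost without IM PeF 1 (-1.14) or IM UF 2 (-1.18).

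Among 22 immediate early genes 8 fell and 4 rose (median -0.60), or 54.5% called, against 37.8% of all tested genes. However, 9 fell and none rose without IM PeF 2, and 7 fell and none rose without IM UF 1. Jun had 196, 188 and 154 in IM UF, against 476, 415 and 430 in IM PeF (-1.29, SE 0.20), and Jund fell by 0.61 (SE 0.09). The 4 rises were Egr2 (1.81), Klf4 (0.77), Dusp1 (0.83) and Myc (0.80). Without IM PeF 2 Egr2 lay at 1.50, Klf4 at 0.50, Dusp1 at 0.75 and Myc at 0.81, and the adjusted p of the 4 ran from 0.0534 to 0.137. The call was also lost without IM UF 1 for each of the 4, without IM PeF 3 or IM UF 2 for Egr2, without IM UF 3 for Klf4, without IM PeF 1, IM PeF 3 or IM UF 2 for Dusp1, and without IM PeF 3 or IM UF 3 for Myc. Fos had a difference of 0.12 (SE 0.43).

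Of 16 glucocorticoid receptor targets 5 rose and 5 fell (median -0.40), or 62.5% called, against 37.8% of all tested genes. Per1, also a clock gene, had 88.3, 134 and 157 in IM UF, against 553, 543 and 520 in IM PeF (log2 difference -2.10, SE 0.20, limma adjusted p = 4.08e-07). Klf9 and Nfkbia fell by 1.57 (SE 0.18) and 2.11 (SE 0.22), whereas the metallothioneins Mt1 and Mt2A rose by 1.58 (SE 0.29) and 1.38 (SE 0.31).

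Of 18 tested clock genes 5 fell and 2 rose, or 38.9% called, near the 37.8% of all tested genes. The hours of collection lie on opposite sides of the day. Cry1 fell by 1.85 (SE 0.21) and Cry2 by 1.47 (SE 0.29), both repressors of the clock, and Dbp, a clock output gene, by 1.01 (SE 0.35). The call of Dbp was lost without IM PeF 2 (-0.82, adjusted p = 0.116), IM PeF 3, IM UF 1 or IM UF 3, and without IM PeF 3 or IM UF 3 1 clock gene rose and 3 fell. Rora and Nr1d1, nuclear receptors that set Bmal1 transcription, rose by 2.39 (SE 0.46) and 1.07 (SE 0.33), Nr1d1 not past the test without IM PeF 1, IM PeF 3 or IM UF 3 (0.92 to 1.02), and Bmal1 itself lay at 0.12 (SE 0.36).

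Markers of other cells were measured on the same arrays. Of 14 smooth muscle and pericyte markers 10 rose and none fell (median 1.40), or 71.4% called, against 37.8% of all tested genes. Their summed signal ran from 2743 to 3373 in IM UF, against 1165 to 1354 in IM PeF. Smooth muscle actin (Acta2) had 133, 104 and 104 in IM UF, against 38.2, 21.3 and 26.1 in IM PeF, and Tagln 507, 435 and 412 in IM UF, against 157, 145 and 93.9 in IM PeF. None of the 14 was at background in either group. These markers moved in the same direction as the collagens and basement membrane genes, and their part in those rises was not tested.

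The 13 granulosa markers summed to 16602 to 21444 in IM UF, against 17383 to 22543 in IM PeF. Of these markers 4 rose, among them the granulosa transcription factor Foxl2 (1.90, SE 0.22), and 3 fell. This was 53.8% called, against 37.8% of all tested genes. Granulosa marker signal was thus present in both groups, with none of the 13 at background in either. Single markers moved both ways, so the sum does not measure granulosa content. The 8 theca markers summed to 8399 to 9079 in IM UF, against 7262 to 9369 in IM PeF. They had 4 falls, among them Cyp17a1, and 1 rise (62.5% called). In tissue cut as a whole, fewer cells of a type and less RNA per cell cannot be told apart.

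Of 13 endothelial markers 2 rose and 1 fell, or 23.1% called, against 37.8% of all tested genes. They summed to 1208 to 1289 in IM UF, against 1322 to 1399 in IM PeF. Of 16 leukocyte markers 1 rose, or 6.25% called (0 to 2 rose without each array). They summed to 1375 to 1714 in IM UF, against 993 to 1373 in IM PeF. The 3 surface epithelium markers, of which 2 rose (1 without IM PeF 1, IM PeF 3 or IM UF 3), summed to 203 to 243 in IM UF, against 66 to 86 in IM PeF. The 3 tested oocyte markers summed to 7 to 31 in IM UF, against 21 to 142 in IM PeF, so little oocyte signal was present. Of them 1 fell, but 3 without IM PeF 2, 2 without IM UF 1 and none without any of the other arrays. The 3 erythrocyte markers, none called (1 fell without IM PeF 1 or IM UF 3), summed to 250 to 586 in IM UF, against 361 to 1170 in IM PeF.

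The next question was where the time course under indomethacin departs from that of follicles that ovulated. The untreated time course, control PoF minus control PeF, had 7183 calls (39.6%), and it shares no sample with the indomethacin one. Over the 18155 probe sets the log2 differences of the time courses correlated at 0.811, a description across probe sets, which are not independent and share the normalisation. Of the 6052 calls under indomethacin 96.8% had the same direction in untreated rats, and 4466 were called there in that direction, which is 73.8% of the indomethacin calls and 62.2% of the untreated ones, while 5 were called in opposite directions. Ptgs2 lay at -7.14 under indomethacin, against -7.68 in untreated rats, Cemip at 5.94 against 6.90, and Edn2 at 3.58 against 4.18.

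In the test of the difference between these time courses, 0 of 18155 probe sets were called (0.0%) by limma, while 1641 had an unadjusted p under 0.05. With arrays weighted by their quality 548 were called, and with the deposited signals 5. The interval of a difference reached 0.85 to either side on the log2 scale at the median (95% level, not adjusted for the number of probe sets). Smaller differences were thus mostly not detectable. Larger ones could be missed too, since the differences ran from -3.68 to 3.76 and none passed the adjusted test. The count therefore does not show that the time courses are alike. The Gapdh 3' over 5' excess, a measure of RNA quality, was 2.22 ± 0.133 in control PoF and 3.72 ± 0.665 in control PeF (SD, n = 3). The Actb excess differed little, with 5.05 ± 0.13 in control PoF and 5.21 ± 0.874 in control PeF. Control PeF 3 was the dimmest array, with a median signal of 4.4 and 25.1% of its probe sets at the floor. Without control PeF 3 the count was also 0, and the part of RNA quality in single genes was not tested. Scaling bears on this comparison, since the median difference over probe sets was -0.06 after quantile normalisation, -0.26 after scaling by the median and -1.36 without scaling.

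The lowest adjusted p for this difference, 0.279, was shared by 26 genes, among them Pam, Itsn2, Jam2, Egln3, Fndc3b, Slc3a2, Ccnb1, Id4 and Adm. Egln3 and Ccnb1 were picked for their low p, and the 95% intervals given for them are not adjusted for that. Egln3, an oxygen-sensing hydroxylase induced by hypoxia and above background on 1 of 3 IM UF and 2 of 3 IM PeF arrays, had 11.5, 6.21 and 2.71 in IM UF, against 9.83, 6.09 and 10.4 in IM PeF, and 109, 89.1 and 32.1 in control PoF, against 8.20, 3.50 and 6.01 in control PeF (difference of the time courses -3.42, 95% interval -4.94 to -1.90). Of the 34 hypoxia and glycolysis genes 15 rose and 5 fell under indomethacin, with a median of 0.49, whereas in untreated rats 26 rose and 2 fell with a median of 1.05. There 44.1% of all tested genes were called, 24.4% higher and 19.7% lower.

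Over the 34 genes of this list the difference of the time courses had a median of -0.815. Slc16a3, Bnip3 and Adm were picked among them after their values were seen. The lactate transporter Slc16a3 had a log2 difference of 1.93 under indomethacin, against 4.90 in untreated rats, and Bnip3 1.57 against 3.51. The vasodilator peptide Adm lay at 1.25 under indomethacin (1.64, and past the test, without IM PeF 2), against 4.57 in untreated rats. No member's difference between the time courses passed the test (adjusted p = 0.303 for Slc16a3, 0.286 for Bnip3 and 0.279 for Adm). Ccnb1 lay at -1.23 under indomethacin, against -0.27 in untreated rats (difference -0.96, unadjusted 95% interval -1.40 to -0.52). This difference did not pass the test either (limma adjusted p = 0.279).

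**Figure D4:**
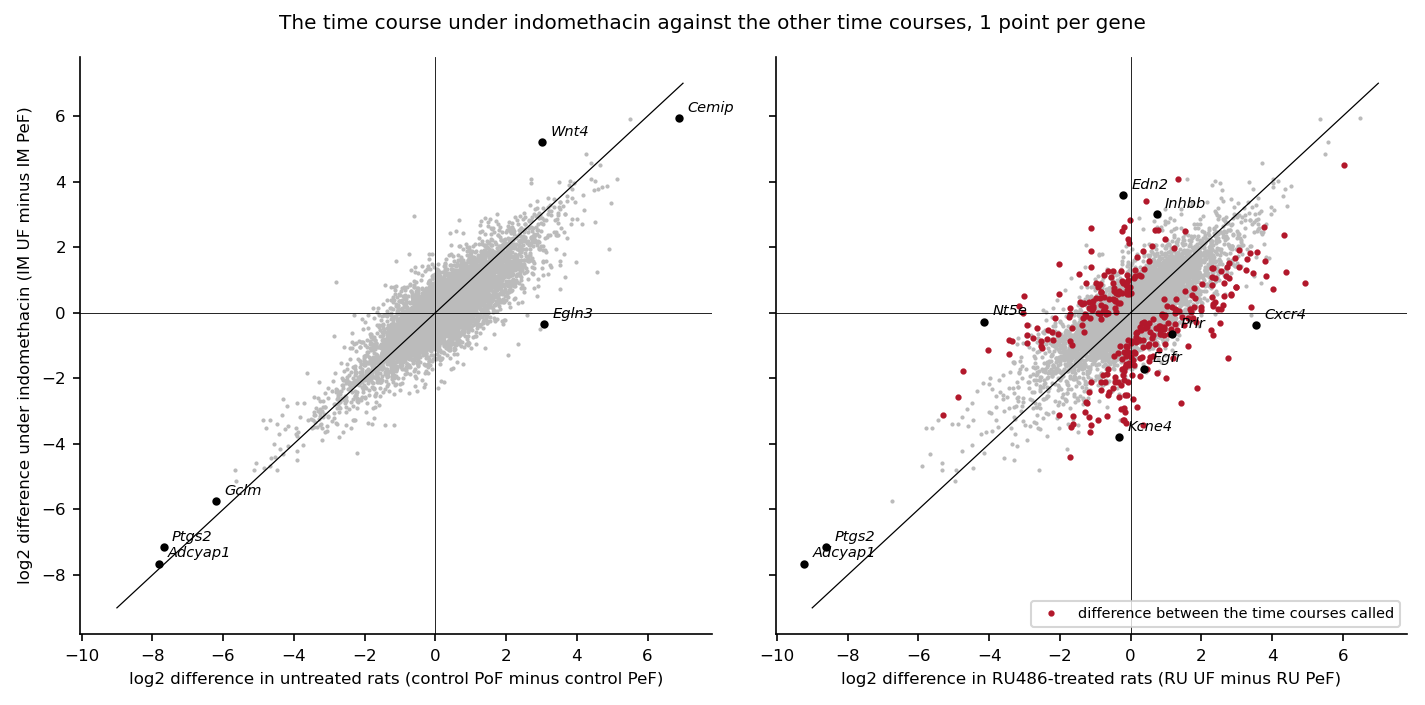
Log2 difference of each of 10391 genes under indomethacin (vertical axes) against that in untreated rats (left panel) and under RU486 (right panel), with the line of equal values. Red points on the right are the 322 genes whose time courses differed between the drugs, and black points are named genes. No gene was called on the left.

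The time course under RU486 serves as a second reference, since there too the follicles stayed unruptured. RU UF minus RU PeF had 7052 calls (38.8%), and its log2 differences correlated at 0.768 with those under indomethacin. Of the indomethacin calls 93.5% had the same direction under RU486, and 4264 were called in that direction in both, 70.5% of the indomethacin calls and 60.5% of the RU486 ones, with 51 called in opposite directions. The doses were given 6 hours apart, so drug and time since dosing cannot be told apart here.

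The time courses under the drugs differed for 476 of 18155 probe sets (2.62%), 187 with a higher (1.03%) and 289 with a lower difference (1.59%) under indomethacin. By gene the count was 322 (3.1%), of which 127 were higher (1.22%). Without RU PeF 2 there were 280 calls, without RU UF 2 there were 281, and without IM PeF 2 there were 393. Median scaling called 215, of which 129 were higher, and the signals as deposited gave 0. The calls were thus mostly higher after median scaling, whereas 39.3% were higher after quantile normalisation. The median difference over probe sets was 0.01 after quantile normalisation, 0.13 after scaling by the median and 0.11 without scaling.

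Edn2 was 1 of the genes with the largest differences. Under indomethacin it rose by 3.58, whereas Edn2 had 82.6, 65.9 and 117 in RU UF, against 92.1, 174 and 61.7 in RU PeF (difference of the time courses 3.79, SE 0.69, limma adjusted p = 0.00507). Inhbb rose less under RU486, with 803, 725 and 807 in RU UF, against 477, 606 and 349 in RU PeF (2.28, SE 0.23, adjusted p = 6.39e-05). The glycolytic enzyme Pfkp had 1167, 1348 and 1662 in RU UF, against 1779, 1765 and 1474 in RU PeF, and no rise was called there (1.53, SE 0.22, adjusted p = 0.000736).

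For other genes the RU486 side moved and the indomethacin side did not pass the test. Nt5e, the ectoenzyme that makes adenosine, had 338, 1095 and 737 in IM UF, against 1105, 563 and 774 in IM PeF, and 66.6, 58.2 and 64.0 in RU UF, against 667, 1260 and 1798 in RU PeF (3.86, SE 0.58). The stress gene Gadd45b (3.51, SE 0.59) and a probe set of the hormone stanniocalcin 1 (Stc1, 3.64, SE 0.66) had the same arrangement. In the indomethacin time course that probe set of Stc1 lay at -0.90 and a brighter one at -0.02. The other genes with the largest higher differences were Acta1 (3.72), Tmem139 (3.51), Larp6 (3.35) and 1 probe set of Dclk1 (3.01). The call of Acta1 was lost without IM UF 1, RU PeF 1, RU PeF 2, RU UF 2 or RU UF 3, and that of Larp6 without any 1 of the 12 arrays but RU UF 1, IM PeF 2, RU PeF 1 and IM UF 1 (3.04 to 3.32). Acta1 was above background on 1 of 3 IM PeF arrays.

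Among the lower differences, the chemokine receptor Cxcr4 had 977, 1320 and 967 in IM UF, against 1041, 2397 and 1080 in IM PeF, and 355, 415 and 207 in RU UF, against 26.0, 24.2 and 23.0 in RU PeF (-3.91, SE 0.50, limma adjusted p = 0.000346). RU PeF thus had the lowest Cxcr4 signals of these groups, and the IM groups overlapped. The potassium channel subunit Kcne4 had 60.5, 48.5 and 39.0 in IM UF, against 712, 852 and 576 in IM PeF, and 64.5, 55.2 and 46.2 in RU UF, against 81.7, 63.4 and 64.1 in RU PeF (-3.46, SE 0.33). Both drugs thus ended at similar Kcne4 signals at estrus, and IM PeF had the highest signals of these drug groups. The untreated signals were not set beside them here, so it is not shown which drug's earlier follicles were unusual. For the 16 tested cytokine and chemokine genes, Cxcr4 among them, indomethacin minus untreated time courses ran from -1.07 to 0.892. None of these differences was called.

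The remaining largest lower differences were those of Susd3 (-4.19), Aard (-4.17), Wipf3 (-4.12), the hedgehog ligand Dhh (-4.02), Gpr146 (-3.75) and the aldehyde oxidase Aox1 (-3.29). For Susd3 and Aard the call was lost without IM PeF 2 (-3.65, adjusted p = 0.0548, and -3.42, adjusted p = 0.0736). It was also lost without IM UF 1, RU UF 1 or RU UF 3 for Susd3, and without IM PeF 3, IM UF 2, IM UF 3, RU PeF 3, RU UF 1 or RU UF 2 for Aard. Aard and Gpr146 were above background on 2 of 3 IM UF arrays. Wipf3, Dhh and Aox1 rose under RU486 by 2.75, 4.92 and 4.02.

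Hormone receptors and steroid genes were among those that differed. Prlr had 5290, 4951 and 5337 in RU UF, against 2872, 2358 and 1801 in RU PeF, a rise, where it fell under indomethacin (difference of the time courses -1.83, SE 0.22, limma adjusted p = 0.000239). Star had 7470, 10427 and 9288 in RU UF, against 7068, 9288 and 8111 in RU PeF (-0.88, SE 0.20, adjusted p = 0.0234), a call lost without IM UF 2, RU PeF 1, RU UF 2 or RU UF 3 (-0.85 to -0.74). Egfr had 1043, 1297 and 1275 in RU UF, against 1241, 935 and 680 in RU PeF (-2.08, SE 0.28). Aromatase (Cyp19a1) fell under both drugs, by less under RU486 (-2.66, SE 0.70, adjusted p = 0.0499), a call lost without any 1 of the 12 arrays but IM PeF 2 (-2.91 to -2.18). Ptges rose more under RU486 (-3.15, SE 0.63, adjusted p = 0.0104).

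Of the 16 glucocorticoid receptor targets 6 differed, all lower under indomethacin, against 1.88% of all tested genes, with a median difference of -1.16 against 0.02 over all tested genes. They were Per1 (-2.03, SE 0.28), Klf9 (-1.45, SE 0.25), Nfkbia (-1.75, SE 0.32), Mt1 (-2.22, SE 0.41), Mt2A (-1.69, SE 0.44) and Fkbp5 (-1.54, SE 0.29), which lay at 0.12 in the indomethacin time course on this probe set and at -1.72 on another. The call of Mt2A was lost without IM PeF 2 (-1.32, adjusted p = 0.108) and without any 1 of the other arrays but IM PeF 1, IM PeF 3 and IM UF 1 (-1.81 to -1.32 over these 9 arrays), and it is 1 of the 6 targets counted here. Mt1 had 304, 211 and 312 in RU UF, against 26.7, 17.1 and 10.1 in RU PeF, so that its rise under indomethacin was the smaller one. RU486 blocks this receptor, but the part of that in these differences was not tested. The median of the 16 targets was 0.17 under RU486, 0.18 in untreated rats and -0.40 under indomethacin. Taken gene by gene, the difference of indomethacin from untreated rats had a median of -0.195, and none of the 16 was called.

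Of the 18 clock genes 5 differed, all lower under indomethacin, against 1.88% of all tested genes, namely Per1, Per2 (-1.90, SE 0.38), Cry2 (-2.00, SE 0.42), Nr1d2 (-1.77, SE 0.38) and Dbp (-2.64, SE 0.50). The call of Nr1d2 was lost without IM UF 2 (-1.59) or RU UF 2 (-1.71). Dbp had 7.57, 17.8 and 12.9 in IM UF, against 21.5, 36.7 and 25.9 in IM PeF, and 78.4, 72.3 and 55.9 in RU UF, against 27.0, 11.0 and 26.8 in RU PeF. The difference of the time courses passed the test, whereas the fall under indomethacin alone was lost without several single arrays, as given above. Per1 had 318, 251 and 232 in RU UF, against 302, 286 and 254 in RU PeF. No cell cycle gene of 32 and no smooth muscle marker of 14 was called in this comparison.

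**Figure D5:**
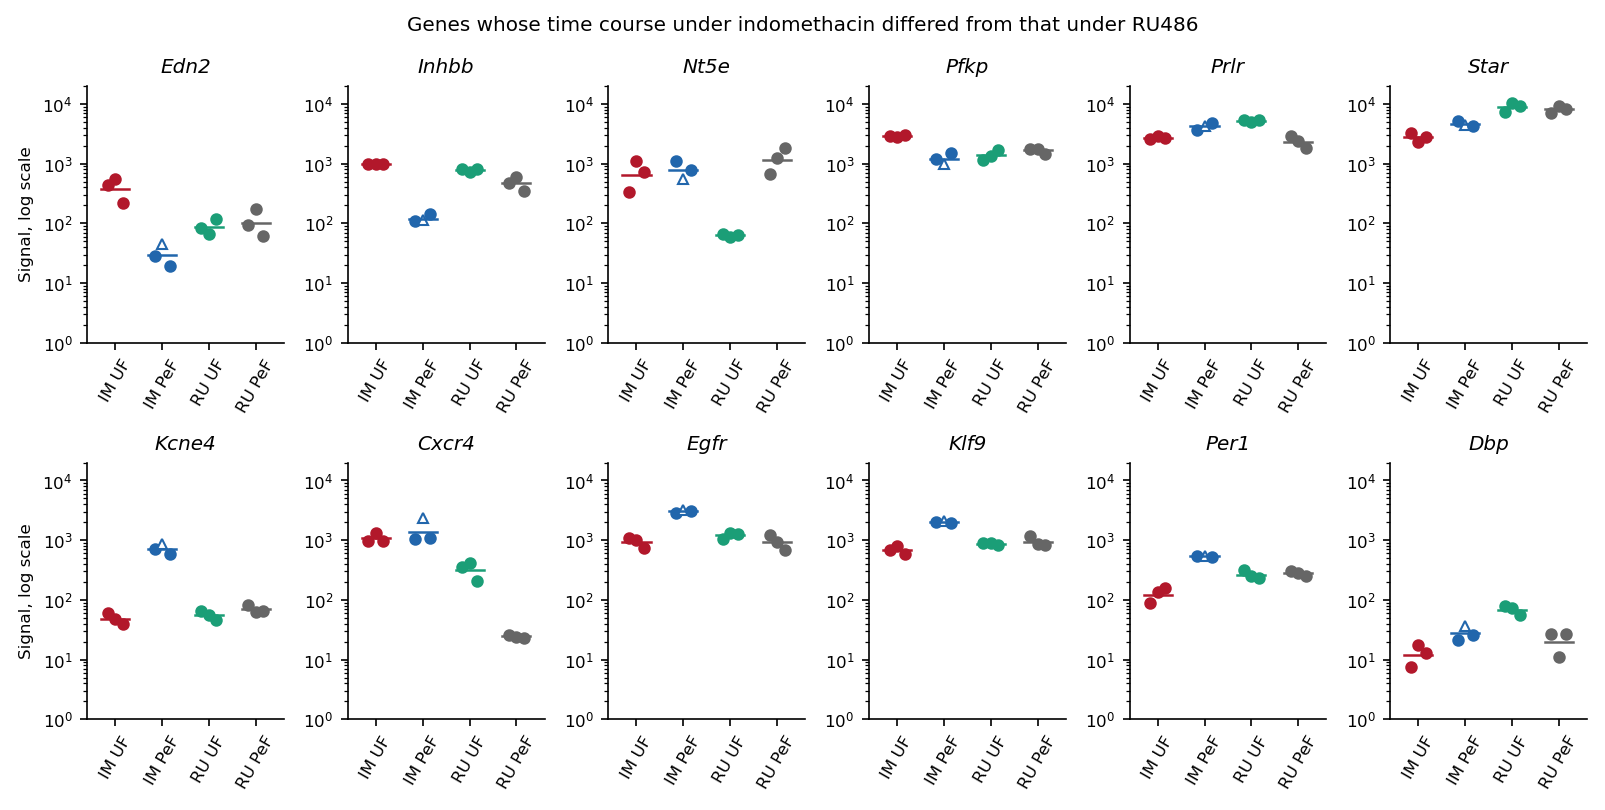
Signals after quantile normalisation (vertical axis, log scale) of 12 genes whose time courses differed between the drugs, in IM UF (red), IM PeF (blue), RU UF (green) and RU PeF (grey), from left to right. Each point is 1 sample, the open triangle is IM PeF 2 and the bar is the geometric mean of 3 samples. Kcne4 lay between 576 and 852 in IM PeF and at 81.7 or less in the other groups shown.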

How the data were processed

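RNA of laser-cut follicles was amplified, labelled with biotin and hybridised to 1 Affymetrix rat array per sample, 18 arrays in 6 groups of 3. The authors deposited linear signal intensity per probe set, made with MAS5 per the submitters' processing notes, which give no version. The deposited intensity has a floor of 1 and is not scaled between arrays. Of 31099 probe sets 57 controls were left out. Of the other 31042, 20826 had 1 gene symbol in the platform annotation, 436 several and 9780 none, and 20758 of the 20826 were matched to current symbols by gene ID.

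Intensities were quantile-normalised over the 18 arrays and taken as log2(signal + 2.79), the pseudocount being the 20th percentile of all deposited values, so that folds of dim genes are understated. Probe sets above their array's median on at least 3 arrays were kept (18155). The test was that of limma 3.58.1, run in R 4.3.3. Each group had its own mean, the 18 arrays shared 1 estimate of the spread, and the fit used a variance trend, 12 residual degrees of freedom and Benjamini-Hochberg adjustment at 0.05. Adjusted p-values come from this fit, since an exact permutation test of 3 against 3 cannot go below 0.1. A gene in a list is read on its probe set with the highest mean over the 18 arrays. The script was tested on simulated data. A level below the brightest of 27 unspiked control probe sets is treated as background, and the fold is then a lower bound: the brighter group's mean against, per array, the higher of that control and the dim probe's own signal.

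Genes were named as the 12 largest rises and falls whose groups do not overlap, the 5 members of lowest adjusted p in each list with at least 3 members called, 24 fixed genes, and for each difference between time courses the 8 largest in each direction or, with none called, 8 of those tied at the smallest adjusted p. Further list members were named after their values were seen. The members and lists were chosen with earlier results of these data known. Alternatives were the scaling, pseudocount, dim filter, samples in the fit, replicate block, array weights, variance trend and leaving out arrays. Arrays give no read depth, and their number limits the precision.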

Additional observations from a re-analysis of the deposited data

Results flagged for a closer look

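The following results are listed because the test of the difference itself found the time course under indomethacin to differ from that under RU486. In all, 476 probe sets differed. Values are differences of the log2 time courses, indomethacin minus RU486, and each passed limma's test after Benjamini-Hochberg adjustment. Among 10 genes with a higher difference were Nt5e (3.86), Edn2 (3.79), Acta1 (3.72), Stc1 (3.64), Tmem139 (3.51), Gadd45b (3.51), Larp6 (3.35), Dclk1 (3.01), Inhbb (2.28) and Pfkp (1.53). Among 23 with a lower difference, the largest were Susd3 (-4.19), Aard (-4.17), Wipf3 (-4.12), Dhh (-4.02), Cxcr4 (-3.91), Gpr146 (-3.75), Kcne4 (-3.46), Aox1 (-3.29) and Ptges (-3.15). The clock genes and glucocorticoid receptor targets were Dbp (-2.64), Mt1 (-2.22), Per1 (-2.03), Cry2 (-2.00), Per2 (-1.90), Nr1d2 (-1.77), Nfkbia (-1.75), Mt2A (-1.69), Fkbp5 (-1.54) and Klf9 (-1.45). Aromatase (Cyp19a1) lay at -2.66. The receptors Egfr (-2.08) and Prlr (-1.83) and the cholesterol carrier Star (-0.88) complete the list. Calls did not hold without single arrays, of 12, for Cyp19a1 (11 arrays, -2.91 to -2.18), Mt2A (9 arrays, -1.81 to -1.32, with -1.32 and adjusted p = 0.108 without IM PeF 2), Larp6 (8), Aard (7), Acta1 (5), Susd3 (4), Star (4) and Nr1d2 (2).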

How the results depend on the processing

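The count of 6052 probe sets between IM UF and IM PeF became 609 with the deposited signals and 10149 with array quality weights, and ranged from 4560 to 6444 when each array was left out in turn. For the difference from untreated rats, 5 were called with the deposited signals and 548 with array weights, and 0 without each array in turn. For the difference from RU486, the 476 calls became 0 with the deposited signals, 215 with median scaling, 2067 with array weights and 181 without the dimmest array of each group, and ranged from 280 to 551 without each array. The RU486 time course had 1038 calls with the deposited signals, and 5841 to 6031 without each array. The untreated time course had 5608 to 7883 without each array, and the share of its calls that were higher was 53.2%, with 74.6% after scaling by the median and 97.5% without scaling. Same-numbered samples of IM UF and IM PeF deviated together with r of 0.0626, 0.118 and 0.0123, so the numbers were not taken as pairs. The replicate block gave 5848 calls under indomethacin, 0 for the difference from untreated rats, 391 for that from RU486, 6967 in untreated rats and 6814 under RU486. Medians that changed sign by more than their spread between replicate arrays were those of luteinization (-0.19 without IM PeF 2, range without each array -0.19 to 0.09), clock genes (0.05 with array weights and 0.05 without the dimmest arrays), granulosa markers (0.02 without IM PeF 1, range -0.43 to 0.02) and endothelial markers (-0.07 with array weights and -0.09 without IM PeF 1, range -0.09 to 0.23). Smaller sign changes, such as that of the clock genes without IM PeF 2 (0.01), are not listed. No named gene changed sign among its called values. The causes of these shifts were not tested. With 3 arrays a group, the median standard error was 0.28 for a time course and 0.40 for a difference between time courses.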

Other observations

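Of 15 tested interferon response genes 5 rose in IM UF against IM PeF and none fell (median log2 difference 0.67), or 33.3%, against 37.8% of all tested genes. Without IM PeF 1, IM PeF 3, IM UF 1 or IM UF 3 there were 3 rises. Oas1a, an antiviral enzyme, had 122, 116 and 51.8 in IM UF, against 12.3, 31.9 and 20.5 in IM PeF (2.02, SE 0.52, limma adjusted p = 0.00568). The immunoproteasome subunit Psmb8 rose by 1.17 (SE 0.27) and Ifi27 by 1.13 (SE 0.29), with no overlap of the groups. Of 16 cytokines and chemokines 1 rose and 4 fell (median -0.47), or 31.2% called, against 37.8% of all tested genes. In this list 5 fell and none rose without IM PeF 2, 1 rose and 2 fell without IM PeF 1, and none rose and 3 fell without IM UF 1. The monocyte attractant Ccl2 had 228, 147 and 96.3 in IM UF, against 68.1, 44.8 and 66.2 in IM PeF (1.29, SE 0.40), a call lost without IM PeF 2 (1.11, adjusted p = 0.0619) or IM UF 1 (0.99). The interleukin receptor Il4r had 209, 198 and 203 in IM UF, against 410, 422 and 447 in IM PeF (-1.06, SE 0.29).

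Of 21 genes of the endoplasmic reticulum stress response and its chaperones 6 fell and 1 rose (median -0.22), or 33.3% called, against 37.8% of all tested genes. Asparagine synthetase (Asns), a target of the stress factor Atf4, had 192, 262 and 439 in IM UF, against 899, 1161 and 1209 in IM PeF (-1.93, SE 0.38, limma adjusted p = 0.000769). Atf6 and Atf4 fell by 1.21 (SE 0.16) and 0.83 (SE 0.17), and the chaperone Calr by 1.00 (SE 0.23). Canx, a lectin chaperone, rose on its brighter probe set (0.98, SE 0.12), whereas its other probe sets lay at -0.73 and -0.18.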
